A study of Capra hircus with 9 samples.

Results

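The genes described here are 10 transcription factor genes of the mammary epithelium, namely ELF5, EHF, ELF3, GATA3, FOXA1, KLF5, SOX9, SOX10, TBX3 and NFIB. They were chosen by symbol, with earlier results of these data known, and all 10 were found among the 23499 genes of the deposited table. Mammary tissue was taken at slaughter from 9 Laoshan dairy goats of parity 3, on average 4 years old, and each goat gave 1 RNA-seq library. Late lactation (LL, 240 days postpartum), the dry period (DP, 300 days postpartum) and late gestation (LG, 140 days after mating) had 3 goats each. No treatment or genetic change is given for any goat, and whether the DP goats were pregnant is not given in the sources used here. Whole tissue was sequenced, so fewer epithelial cells and less transcript per epithelial cell cannot be told apart.

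The mammary epithelium has an inner luminal layer, with milk-secreting alveolar cells and hormone-sensing cells, and an outer basal layer of contractile myoepithelial cells. Transcription factors set these identities: ELF5, an ETS factor, drives alveolar differentiation downstream of prolactin and progesterone, and GATA3 and FOXA1 are known for the luminal lineage and for estrogen receptor action. EHF and ELF3 are further epithelial ETS factors, KLF5 is a Krüppel-like factor of epithelia, NFIB acts with STAT5 on milk protein genes, SOX9 and SOX10 are linked to progenitor states, and TBX3 is needed for the embryonic mammary bud.

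Deposited values were read as FPKM, fragments normalized to transcript length and to the fragments mapped in the library. Milk genes took much of the LL total, and the summed FPKM ranged from 601250 to 1157015 over the libraries. Each library was therefore divided by a median-ratio factor (0.498 to 0.605 for LL, 1.44 to 1.53 for DP and 1.20 to 1.31 for LG), which gives scaled FPKM. A log2 fold change is the difference between 2 stages in mean log2(scaled FPKM + 1), a scale that understates the change of low genes. It was tested with limma over 14701 genes, and a gene was called when its Benjamini-Hochberg adjusted p was under 0.05 and its log2 fold change was at least 1 in size. With no scaling, the median over all genes was 1.09 for DP versus LL, 0.93 for LG versus LL and -0.18 for LG versus DP, and unscaled changes have to be read against it. FPKM hold no read counts, so the depth behind a value is unknown. All 12 general epithelial genes checked, EPCAM and CDH1 among them, reached 0.5 FPKM in each stage. Scaling on these 12 genes was another alternative, with medians over all genes of 0.46, 0.17 and -0.28. It leans on PROM2, a membrane glycoprotein gene that was called lower in both DP and LG than LL (-4.81 and -4.84), and with the other 11 genes alone the medians were 0.14, -0.17 and -0.30. That 11-gene scaling was added after seeing the data.

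In DP, FOXA1 was called higher and ELF5, EHF and KLF5 lower than in LL, which makes 4 of 10 genes, although EHF and KLF5 turned sign without scaling (0.064 and 0.14). The count itself depended on the scaling. With no scaling 5 genes were called higher and 1 lower, with quantile normalization 0 and 2, on the 12 epithelial genes 2 and 1, and on 11 of them 1 and 2. Of all genes tested, 22.6% were called in that comparison (13.8% higher and 8.79% lower). For LG versus LL 3 genes were called, with GATA3 and SOX10 higher and KLF5 lower (4 higher and 0 lower without scaling, KLF5 alone on 11 epithelial genes), where 17.3% of all genes were called (10.7% higher and 6.61% lower). For LG versus DP 6 genes were called. ELF5, EHF, SOX10 and GATA3 were higher and TBX3 and FOXA1 lower, where 13.3% of all genes were called (6.37% higher and 6.88% lower). By the adjusted p alone the counts were 6, 4 and 8 of 10, beside 56.9%, 50.2% and 34.8% of all genes. All 10 genes passed the filter on low values, FOXA1 only through its DP libraries. Their median log2 fold changes were -0.27, -0.12 and 0.33, beside 0.00, 0.02 and 0.01 over all genes tested. Scaled values did not overlap between DP and LL for 6 of the 10 genes (65.9% of all genes), between LG and LL for 7 (61.1%) and between LG and DP for 8 (47.9%). The 3 comparisons share libraries and are not independent.

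**Figure D1:**
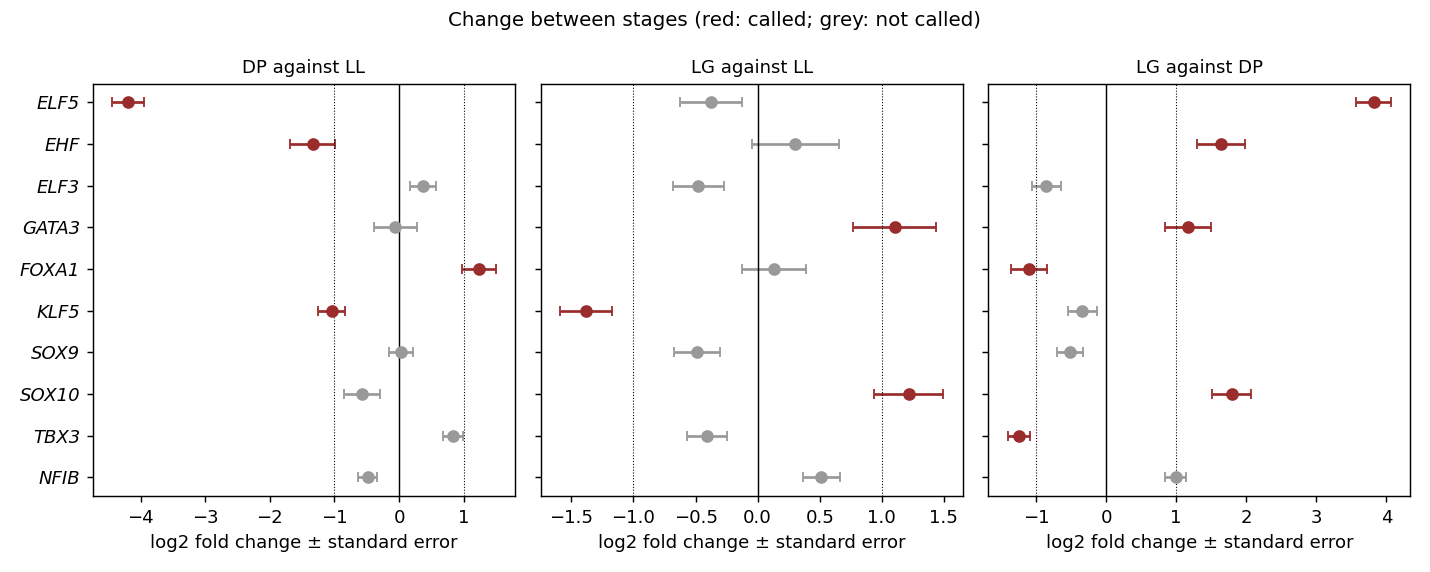
Log2 fold change (x axis) with its standard error for the 10 genes (y axis) in the 3 comparisons of stages, where red points are called and dotted lines mark a change of 1. For LG versus DP 6 genes are red, for DP versus LL 4 and for LG versus LL 3, and the signs of EHF, KLF5, SOX10, GATA3 and NFIB for DP versus LL turn when libraries are not scaled.

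Markers of some other cell types moved with the stages as well. Of 7 fibroblast genes, 6 were called higher in DP than LL, 2 higher in LG than LL and 3 lower in LG than DP. Their summed scaled FPKM was 218 to 332 for LL, 518 to 2415 for DP and 527 to 962 for LG. Of 8 leukocyte genes tested, 6 were called higher in DP than LL and 3 lower in LG than DP. In LG versus LL 2 of them were called higher and 1 lower. Of 6 endothelial genes, 0 were called in DP versus LL or in LG versus LL, and 2 were lower in LG than DP. Of 9 basal and myoepithelial genes, 1 was called higher in DP than LL, 2 in LG than LL and 1 in LG than DP. In each comparison 0 of them were called lower. Of all genes, 13.8% were called higher and 8.79% lower in DP versus LL. The shares were 10.7% and 6.61% in LG versus LL, and 6.37% and 6.88% in LG versus DP. The part of these cell types in the changes of the 10 factors was not tested.

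The ETS gene ELF5 had the highest FPKM of the set in every LL and LG library and much lower values in DP. ELF5 (gene ID 102169781, chromosome 15, 17861190 to 17911966, plus strand) stood at 335, 374 and 266 FPKM in the LL libraries. DP libraries had 39.5, 63.7 and 37.6 FPKM, and LG libraries 539.8, 504 and 654. DP was below both other stages in every library, and after scaling LL and LG overlapped. Its rank among all genes, which no scaling alters, was 98 to 131 in LL libraries, 477 to 1080 in DP libraries and 101 to 125 in LG libraries. The scaled means (± SD, n = 3 goats a stage) were 596 ± 136 for LL, 32.1 ± 10.5 for DP and 452 ± 44.7 for LG. ELF5 was called lower in DP than LL, with a log2 fold change of -4.19 (standard error 0.25, limma adjusted p = 3.13e-06). It was called higher in LG than DP, by 3.82 (standard error 0.25, adjusted p = 2.09e-05). Both calls were made under each of the 5 scalings tried and without any single library. For LG versus LL the log2 fold change was -0.37 (adjusted p = 0.242) and turned to 0.80 without scaling.

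EHF, an epithelial ETS factor, is the neighbour of ELF5 on the chromosome. EHF (gene ID 102170803, chromosome 15, 17702723 to 17759108, minus strand) lies 102082 bases from ELF5, with 0 other genes of the table between them. LL libraries had 55.8, 61.3 and 132 FPKM, DP libraries 105.8, 87.0 and 56.3, and LG libraries 172, 169 and 343. The third library of LL and that of LG were the highest of their stages. LG was above DP in every library, while DP and LL overlapped as deposited and were separated after scaling, to 56.2 ± 15.5 and 147 ± 61.7 scaled FPKM (LG: 181 ± 69.6). EHF was called higher in LG than DP under each of the 5 scalings (log2 fold change 1.64, standard error 0.35, adjusted p = 0.00586). The lower level in DP than LL (-1.33, standard error 0.35, adjusted p = 0.00931) was also called on 11 epithelial genes (-1.17), but it was 0.064 without scaling, -0.53 with quantile normalization and -0.77 on all 12. LG versus LL gave 0.31 (adjusted p = 0.490), which was 1.47 and called without scaling.

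ELF3, another epithelial ETS gene, had its highest FPKM in DP. ELF3 (gene ID 102170871, chromosome 16, 79153828 to 79159272, plus strand) had 2.14, 2.78 and 3.93 FPKM in LL libraries. DP libraries had 8.65, 9.64 and 13.2, and LG libraries 4.91, 4.76 and 3.38. After scaling, DP overlapped LL and stood above LG. LG versus DP gave -0.85 (standard error 0.20, adjusted p = 0.0105), short of 1 in size. It was called without scaling (-1.10), with scaling on epithelial genes (-1.18) and with a pseudocount of 0.1 (-1.01). DP versus LL gave 0.37 (adjusted p = 0.141), which was 1.55 and called without scaling (adjusted p = 6.4e-05). LG versus LL gave -0.48 (adjusted p = 0.0771), which was 0.45 without scaling.

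The ratio of 2 genes within a library does not depend on scaling, and 4 such ratios were compared, chosen after the values were seen. The ratio of ELF5 to EHF was 6.004, 6.09 and 2.01 in LL libraries and 3.14, 2.98 and 1.91 in LG libraries. In DP libraries it was 0.373, 0.733 and 0.667, so EHF exceeded ELF5 there in FPKM. The ratio of ELF5 to ELF3 had a geometric mean of 113 for LL, 4.41 for DP and 131 for LG. For both ratios DP overlapped neither other stage (two-sided exact permutation test, p = 0.1 each, the smallest p that 3 against 3 libraries can give). For LG versus LL the exact p was 0.3 for ELF5 over EHF and 0.7 for ELF5 over ELF3.

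**Figure D2:**
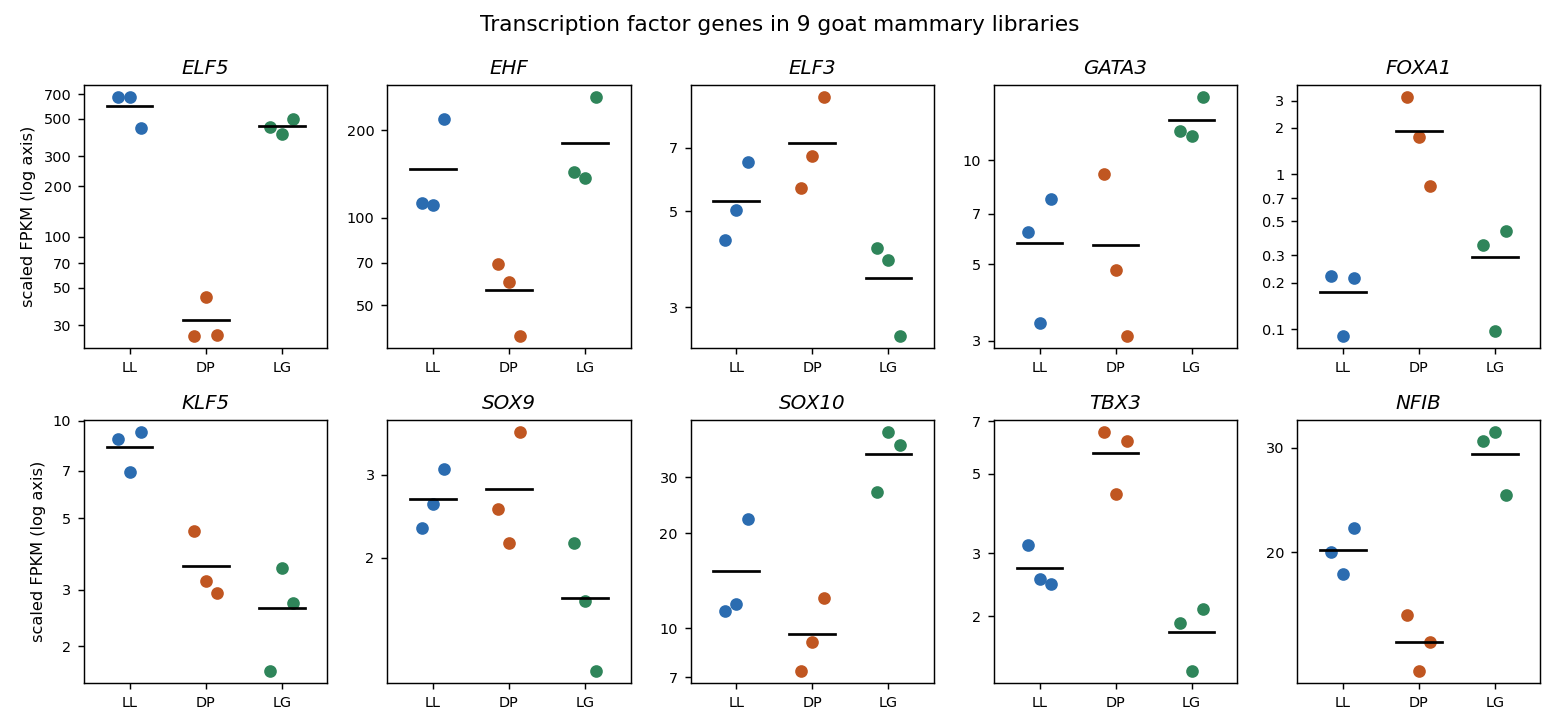
Scaled FPKM (log axis) of the 10 genes in late lactation (LL, blue), the dry period (DP, orange) and late gestation (LG, green), where a point is a library and a bar the mean of 3. ELF5 spans 25.8 to 44.2 in DP and 408 to 676 in the other stages, FOXA1 and TBX3 are highest in DP, and SOX10, NFIB and GATA3 in LG.

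Among the luminal factors, GATA3 had its highest values in LG. GATA3 (gene ID 102172821, chromosome 13, 12379323 to 12399872, plus strand) had 3.08, 1.87 and 4.66 FPKM in LL libraries. DP libraries had 13.9, 6.93 and 4.45, and LG libraries 14.5, 14.5 and 20.0. After scaling, the LG libraries (11.8 to 15.2) stood above those of LL (3.38 to 7.70) and DP (3.09 to 9.13), which overlapped. GATA3 was called higher in LG than LL (log2 fold change 1.10, standard error 0.33, adjusted p = 0.0203) and than DP (1.17, standard error 0.33, adjusted p = 0.0230). The call over LL was lost without the second LL library (0.82, adjusted p = 0.0798) or the third LG library (0.99, adjusted p = 0.0656), and on 11 epithelial genes (0.89, adjusted p = 0.0538). The call over DP was lost without scaling (0.99), with scaling on 12 or 11 epithelial genes (0.85 and 0.81), and without the second or the third DP library or the first or the third LG library (0.86 to 1.21, adjusted p = 0.0518 to 0.0739). For DP versus LL the log2 fold change was -0.06 (adjusted p = 0.883), which became 1.10 and called without scaling, and 0.42 or 0.08 with scaling on 12 or 11 epithelial genes.

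GATA3 is also a T cell factor. The summed scaled FPKM of 10 leukocyte genes was 24.7 to 31.2 for LL, 59.4 to 129.5 for DP and 28.4 to 40.4 for LG, with 0 of the 10 listed at 0 throughout a stage. Within DP, the first library had the highest GATA3 level and the highest leukocyte sum, and the third the lowest of both. EHF, FOXA1 and KLF5 had the same order within DP, ELF3 and SOX10 the opposite one, and the other factors neither. The leukocyte part of the GATA3 level was not tested.

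FOXA1, a pioneer factor for the estrogen receptor, reached 1 FPKM in DP libraries alone. FOXA1 (gene ID 102171659, chromosome 21, 47183330 to 47190045, minus strand) had 0.11, 0.05 and 0.13 FPKM in LL libraries. DP libraries had 4.84, 2.52 and 1.21, and LG libraries 0.42, 0.12 and 0.57. Every DP library stood above every other library. Outside DP only the third LG library reached 0.5 FPKM, so FOXA1 passed the filter (0.5 FPKM in 3 libraries) only through DP. Its calls thus rest on the stage that let it be tested. The log2 fold change was 1.23 for DP versus LL (standard error 0.26, adjusted p = 0.00316) and -1.10 for LG versus DP (standard error 0.26, adjusted p = 0.00959), both called. With a pseudocount of 0.1 they were 2.74 and -2.30. Without the first DP library they were 0.91 and -0.78 and not called, and so were 0.98 and -0.87 with quantile normalization. The call for LG versus DP was also lost without the second LG library (-0.98). LG versus LL gave 0.13 (adjusted p = 0.698). The ratio of GATA3 to FOXA1, among the 4 chosen after the values were seen, was 28.0 to 37.4 over LL libraries. It was 2.75 to 3.68 over DP libraries and 34.6 to 121 over LG libraries. The exact permutation p was 0.1, the smallest possible, for DP versus LL and for LG versus DP, and 0.6 for LG versus LL.

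TBX3, a T-box repressor, also had its highest values in DP. TBX3 (gene ID 102185207, chromosome 17, 11055331 to 11071045, minus strand) had 1.57, 1.41 and 1.49 FPKM in LL libraries. DP libraries had 10, 6.33 and 8.86, and LG libraries 2.30, 1.74 and 2.76. DP stood above both other stages, while LG was above LL as deposited and below it after scaling, with scaled means of 2.72 ± 0.378 for LL, 5.70 ± 1.15 for DP and 1.81 ± 0.358 for LG. TBX3 was called lower in LG than DP under each of the 5 scalings and without any single library (-1.25, standard error 0.16, adjusted p = 0.000438). DP versus LL gave 0.84 (standard error 0.16, adjusted p = 0.00188), short of 1, and was called without scaling (1.90), with scaling on 12 epithelial genes (1.30, but 0.99 and not called on 11) and with a pseudocount of 0.1 (1.03). LG versus LL gave -0.41 (adjusted p = 0.0565), which was 0.38 without scaling. The gene LOC106503025 overlaps the upstream end of TBX3 on the other strand, with at most 0.4 FPKM. The kit is not stated to keep strand, so reads in the overlap cannot be assigned.

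SOX10, linked to stem-like and plastic mammary cells, had its highest values in LG. SOX10 (gene ID 102181279, chromosome 5, 108687310 to 108698082, minus strand) had 5.66, 6.62 and 13.4 FPKM in LL libraries. DP libraries had 11.2, 13.1 and 17.9, and LG libraries 32.4, 51.6 and 49.8. Every LG library exceeded every other library, also after scaling (27.1 to 41.9, against 7.34 to 22.2). SOX10 was called higher in LG than LL (1.22, standard error 0.28, adjusted p = 0.00573) and than DP (1.79, standard error 0.28, adjusted p = 0.00124), both without any single library. The call over DP was made under each of the 5 scalings, while that over LL was short of 1 on 11 epithelial genes (0.99). DP versus LL gave -0.57 (adjusted p = 0.105), which was 0.72 without scaling.

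SOX10 is also a Schwann cell factor. The summed scaled FPKM of 8 Schwann cell genes was 8.64 to 13.0 for LL, 20.7 to 31.7 for DP and 11.4 to 30.7 for LG. The receptor gene ERBB3, which epithelium also expresses, had the highest mean FPKM of the 8 in each stage. Its scaled means were 5.73 for LL, 14.8 for DP and 19.0 for LG, so the sum leans on it. Of the 3 genes tested, S100B (1.20) and ERBB3 (1.17) were called higher in DP than LL. ERBB3 was also called higher in LG than LL (1.46), and S100B lower in LG than DP (-1.43). In LG and in LL 5 of the 8 genes stayed under 0.5 FPKM, and in DP 2. In LG the cadherin gene CDH19 was listed at 0 in all 3 libraries. CEBPD, a factor gene of many cell types, was likewise listed at 0, in all 9 libraries. The Schwann cell part of the SOX10 level was not tested. As deposited, ERBB3 had 23.5 ± 11.6 FPKM in LG (SD, n = 3).

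SOX9, a progenitor factor, was low in all stages. SOX9 (gene ID 106503295, chromosome 19, 58090620 to 58096193, minus strand) had 1.15, 1.44 and 1.87 FPKM in LL libraries. DP libraries had 3.87, 3.09 and 5.33, and LG libraries 2.57, 2 and 1.51. After scaling, DP overlapped both other stages. The log2 fold changes were 0.03 for DP versus LL (limma adjusted p = 0.888), -0.49 for LG versus LL (adjusted p = 0.0522) and -0.52 for LG versus DP (adjusted p = 0.0545), none of them called. Without scaling the first was 1.02 and called (adjusted p = 0.00065), which is below the shift of all genes, and the second was 0.28. The unadjusted limma p was 0.0264 for LG versus LL and 0.0196 for LG versus DP. The ratio of SOX10 to SOX9 was 12.6, 25.8 and 33.0 in LG libraries, 4.60 to 7.19 over LL libraries and 2.90 to 4.24 over DP libraries. No stage overlapped another in this ratio (exact permutation p = 0.1 for each pair of stages).

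NFIB, a partner of STAT5 at milk protein genes, was highest in LG. NFIB (gene ID 102190412, chromosome 8, 29734276 to 29997456, plus strand) had 9.99, 10.2 and 13.3 FPKM in LL libraries. DP libraries had 24.0, 18.2 and 20.3, and LG libraries 36.9, 39.4 and 32.9. No stage overlapped another, but DP was above LL as deposited and below it after scaling, with scaled means of 20.2 ± 1.82 for LL, 14.2 ± 1.53 for DP and 29.3 ± 3.71 for LG. The NFIB change for LG versus DP was 0.995 on the log2 scale (standard error 0.15, adjusted p = 0.000993), just short of 1, and it was called in 5 of the 9 fits without 1 library (0.92 to 1.10 over the 9). LG versus LL gave 0.51 (adjusted p = 0.0173), which was 1.63 and called without scaling. DP versus LL gave -0.48 (adjusted p = 0.0200), which was 0.85 without scaling and 0.057 or -0.32 with scaling on 12 or 11 epithelial genes.

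KLF5, an epithelial Krüppel-like factor, was higher in LL than in both other stages only after scaling. As deposited, the LL mean of 4.61 FPKM was above that of LG (3.30) and below that of DP (5.25). KLF5 (gene ID 102180404, chromosome 12, 38595264 to 38614237, minus strand) had 4.38, 3.83 and 5.61 FPKM in LL libraries. DP libraries had 6.96, 4.60 and 4.20, and LG libraries 2.01, 4.32 and 3.57. As deposited all stages overlapped, whereas the scaled means were 8.33 ± 1.24 for LL, 3.55 ± 0.877 for DP and 2.63 ± 0.915 for LG, with LL apart. KLF5 was called lower in LG than LL (-1.38, standard error 0.21, adjusted p = 0.000632), but was at -0.41 and not called without scaling. It was called lower in DP than LL (-1.04, standard error 0.21, adjusted p = 0.00250), but was at 0.14 without scaling and at -0.56 or -0.91 with scaling on 12 or 11 epithelial genes. That call was also lost without the third LL library or the second or the third DP library (-0.99 to -0.93). LG versus DP gave -0.34 (adjusted p = 0.231).

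**Figure D3:**
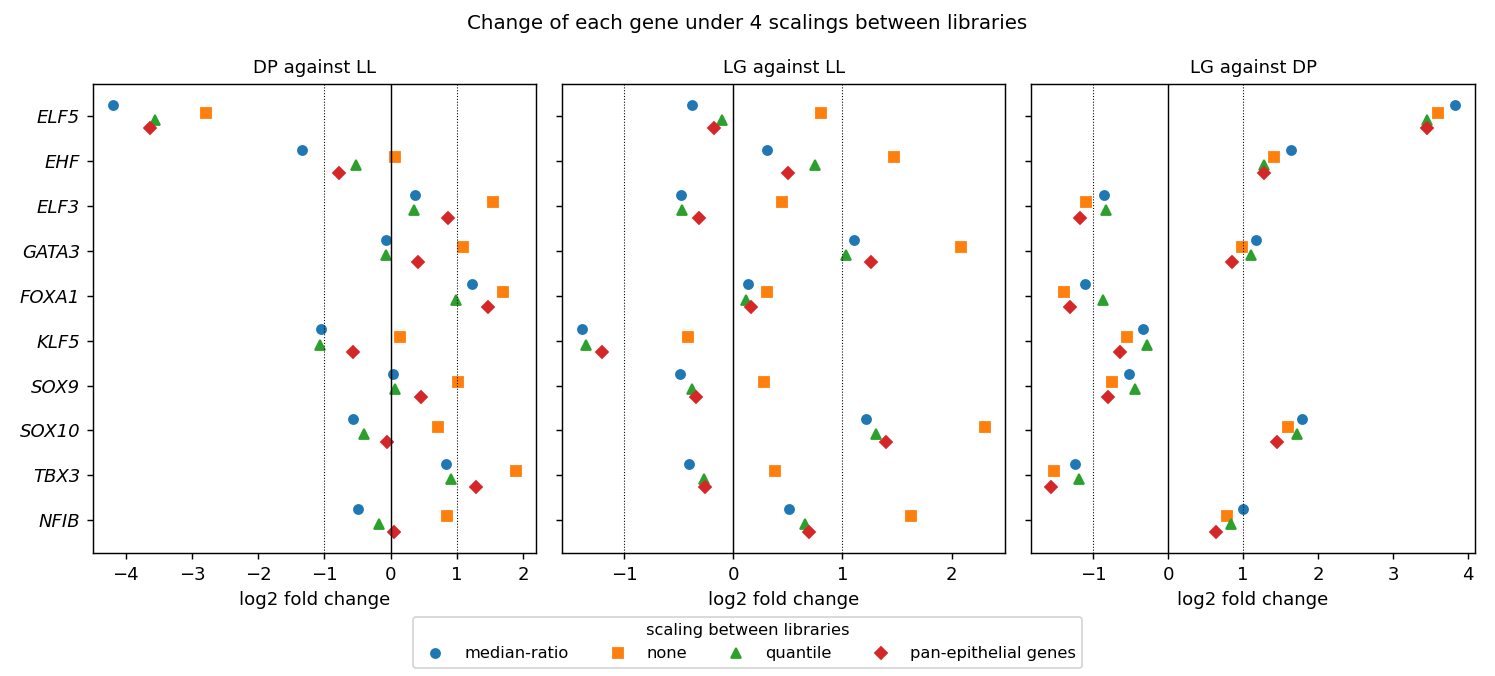
Log2 fold change (x axis) of the 10 genes (y axis) in each comparison, with libraries scaled by median ratio, not scaled, quantile normalized or scaled on 12 general epithelial genes. For LG versus DP the 4 symbols of each gene lie on one side of 0, whereas for DP versus LL those of EHF, KLF5, SOX10, GATA3 and NFIB lie on both sides.

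The make-up of the set changed in DP. As a share of the summed FPKM of the 10 genes, ELF5 made up 73.6% ± 11.7 for LL, 23.0% ± 6.23 for DP and 63.1% ± 4.01 for LG (SD, n = 3 a stage). EHF held the largest share in DP, 40.0% ± 6.51, beside 18.8% ± 9.56 for LL and 24.5% ± 5.49 for LG. NFIB followed in DP with 10.3% ± 1.77, SOX10 with 7.19% ± 2.99 and ELF3 with 5.35% ± 2.15. TBX3 made up 4.18% ± 1.16 in DP and at most 0.375% of any other library. FOXA1 made up 1.33% ± 0.714 in DP and at most 0.052% elsewhere. The shares of a library add up to a fixed total, so a lower ELF5 share goes with higher shares of the other genes. With median-ratio scaling the mean of EHF was lowest in DP (56.2 scaled FPKM, against 147 for LL and 181 for LG). Those of NFIB and SOX10 were also lowest in DP.

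**Figure D4:**
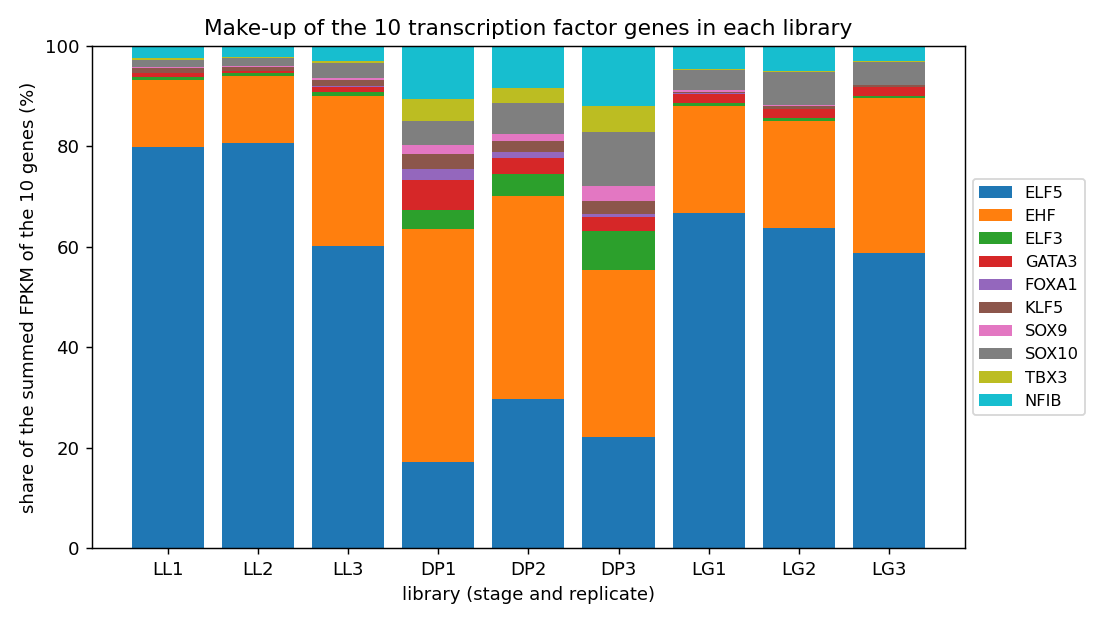
Share of each gene (y axis, percent) in the summed FPKM of the 10 genes for the 9 libraries (x axis), stacked to 100. ELF5 fills 58.9% to 80.7% of each LL and LG bar and 17.3% to 29.6% of each DP bar, in which EHF is the largest part.

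Each gene was also set against the mean log2 level of the 12 general epithelial genes in the same library, in an analysis added after seeing the data. That mean changed by -0.46 for DP versus LL, -0.11 for LG versus LL and 0.35 for LG versus DP. PROM2 carried most of the first value and the sign of the second, since the mean of the other 11 genes changed by -0.06, 0.32 and 0.39. Between LG and DP, where the means of 12 and 11 genes differed least, 9 of the 10 genes did not overlap with either mean, beside 49.7% of all genes with 12 and 50.1% with 11. They were ELF5 (3.47 relative to the 12 genes), SOX10 (1.44), EHF (1.29), NFIB (0.64), KLF5 (-0.69), SOX9 (-0.87), ELF3 (-1.20), FOXA1 (-1.46) and TBX3 (-1.60), and GATA3 (0.81) overlapped. For DP versus LL 5 genes did not overlap relative to the 12 genes, beside 61.6% of all genes, namely ELF5 (-3.73), FOXA1 (1.69), TBX3 (1.30), EHF (-0.88) and ELF3 (0.83). Relative to 11 genes there were 6, beside 57.3%, with KLF5 (-0.98) and NFIB (-0.42) added and ELF3 (0.44) overlapping. For LG versus LL 5 genes did not overlap relative to the 12 genes, beside 59.8%, namely SOX10 (1.32), GATA3 (1.21), NFIB (0.62), TBX3 (-0.30) and KLF5 (-1.28). Relative to 11 genes there were 7, beside 63.4%, with ELF5 (-0.70), ELF3 (-0.80) and SOX9 (-0.81) added and NFIB (0.19) overlapping. A pair of stages without overlap has a two-sided exact permutation p of 0.1, and relative to the 12 genes of 0.16 after Benjamini-Hochberg adjustment over the 30 tests.

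Other transcription factors were followed as a list of 62 genes, of which 56 were tested. Many are known from epithelium, but some are not particular to it, TWIST1 and ZEB2 among them. For DP versus LL 8 of the 56 were called higher, where 13.8% of all genes were called higher and 8.79% lower, and the median change on the log2 scale was 0.27 beside 0.00 over all genes. TWIST1, a mesenchymal factor, gave 2.08 (adjusted p = 7.04e-05), with 0.07 ± 0.0624 FPKM for LL and 5.77 ± 2.46 for DP. TP63, the basal lineage factor, gave 1.47 (0.137 ± 0.0503 and 3.60 ± 0.129 FPKM), and TFAP2A, an AP-2 factor, gave 1.39 (0.11 ± 0.0265 and 3.17 ± 0.442 FPKM).

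For LG versus LL 8 of these factors were called higher and 3 lower (all genes: 10.7% and 6.61%), with a median of 0.04 beside 0.02. TRPS1, a GATA-type repressor, gave 2.52, with 5.86 ± 0.123 FPKM for LL and 82.9 ± 13.6 for LG. The progesterone receptor gene PGR gave 1.91 and TFAP2A 1.86, while KLF6 (-1.76), ID4 (-1.22) and TFCP2L1 (-1.10) were lower. Between DP and LG 5 were called higher and 6 lower in LG (all genes: 6.37% and 6.88%), with a median of -0.26 beside 0.01. PGR gave 1.76, TRPS1 1.55 and the estrogen receptor gene ESR1 1.54, with ESR1 at 12.9 ± 6.92 FPKM for DP and 31.7 ± 0.334 for LG. KLF4 (-2.04), ZEB2 (-1.42) and TFCP2L1 (-1.42) were lower. FOXA1 was called lower in LG than DP while ESR1 and PGR were called higher. The 8 hormone-sensing luminal genes followed, these 3 among them, were split. In LG versus DP 3 were called higher and 4 lower (all genes: 6.37% and 6.88%). FOXA1, among these 4, passed the filter on low values only through its DP libraries. Its call was made in 7 of the 9 fits without 1 library. PRLR (1.84) was also higher, and AREG (-2.25), TNFSF11 (-1.68) and WNT4 (-1.31) were lower like FOXA1.

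**Figure D5:**
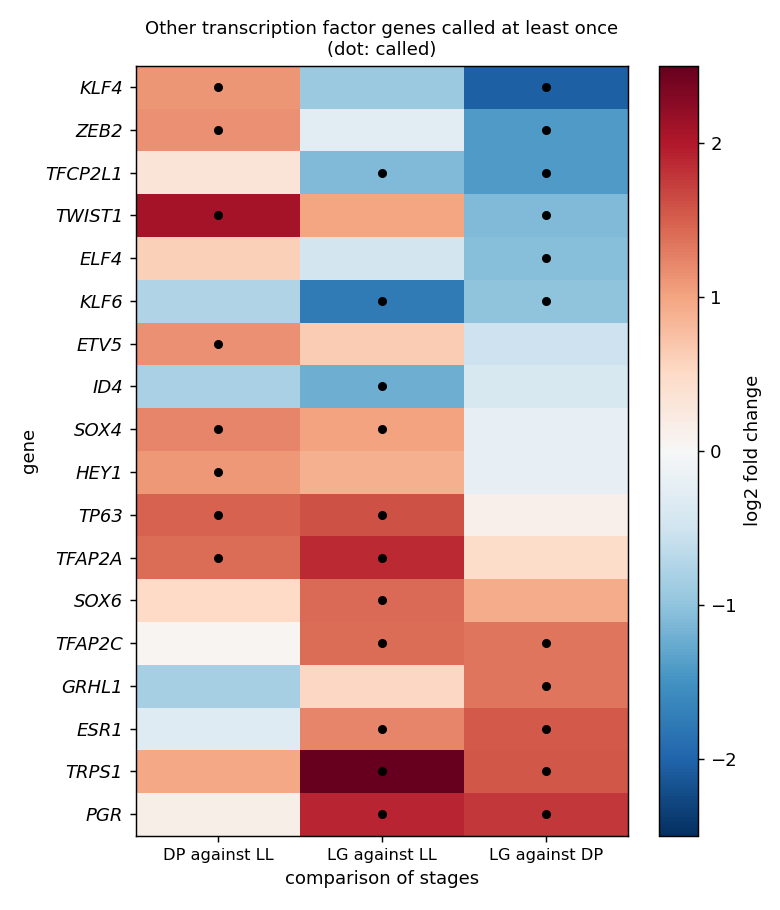
Log2 fold changes (colour) in the 3 comparisons (columns) of the other transcription factor genes called at least once (rows, ordered by LG versus DP), with a dot where a gene was called. KLF4 is at the top with -2.04 for LG versus DP, and PGR, TRPS1 and ESR1 are at the bottom with 1.76, 1.55 and 1.54.

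The genes whose scaled log2 level ran closest to that of a called factor over the 9 libraries were taken from 11457 candidates by Pearson's r. The points share libraries, stages and scaling factors, and r is given as a description. Closest to ELF5 were SLC2A4, AP1S1 and SLC27A4 (r = 0.996, 0.993 and 0.992), a glucose transporter, a clathrin adaptor subunit and a fatty acid transporter. Closest to EHF were RAB11FIP1, IST1 and KCNK5 (0.953, 0.948 and 0.944), and to KLF5 DENND3, SMPD1 and TTC39A (0.976, 0.958 and 0.954). FGF10, a growth factor of epithelial branching, FAM83G and PLCE1 ran closest to SOX10 (0.963, 0.950 and 0.944). XRCC4, GSTM3 and SOD2 ran closest to TBX3 (0.984, 0.977 and 0.973), and HPS3, RAPGEF6 and C8H9orf72 to FOXA1 (0.975, 0.974 and 0.971). For GATA3 they were KMT5B, KIAA1217 and ESR1 (0.939, 0.939 and 0.929). Among the 10 factors, ELF3 and SOX9 had r = 0.90, SOX10 and NFIB 0.88, and ELF5 and EHF 0.82, while TBX3 and NFIB had -0.88.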

How the data were processed

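Total RNA of 9 mammary samples went into TruSeq libraries. The authors trimmed reads with Trimmomatic and aligned them with HISAT2. The paper names StringTie for FPKM, and the submitters' processing notes name HTSeq. The deposited table holds 1 value per gene and library, names neither unit nor build, and was read as FPKM. Of its genes, 23465 matched RefSeq ARS1.2 by identifier, all with the same start. Values of the 10 genes were not linked to those of a neighbouring gene (a straight line within 1% of the range).

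Genes with at least 0.5 FPKM in 3 or more libraries were fitted with limma 3.58.1 in R 4.3.3 (trend, no covariates, all libraries, pseudocount 1) after median-ratio scaling on 15905 genes. The script was tested on simulated data. Exact permutation tests used scipy 1.17.1. The 10 genes and all lists were chosen with earlier results of these data known. Named list genes are up to 3 called genes per direction with a mean of 2 FPKM or more in the higher stage, and the genes most like a called factor are the 3 with the highest r. The libraries come from separate goats, and p-values measure the spread between them. Alternatives varied scaling, pseudocount, filter, call rule, trend, stages fitted and a replicate block, and left out each library in turn. The values of 1 marker gene are not reported here.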

Additional observations from a re-analysis of the deposited data

How the results depend on the processing

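The libraries come from separate goats, and replicate numbers were not used as pairs in the main fit. The correlation of deviations was -0.11 to 0.20 between equal numbers and -0.22 to 0.07 between unequal ones. A replicate block changed no call of the 10 genes, which stayed at 4, 3 and 6, and gave 3340, 2564 and 1986 genes in DP versus LL, LG versus LL and LG versus DP. Leaving out 1 library gave 3075 to 3422, 2400 to 2576 and 1738 to 2004 genes, and 3 to 4, 2 to 3 and 5 to 7 of the 10. By the adjusted p alone 8359, 7383 and 5112 genes differed, without scaling 8348 in DP versus LL (7979 higher and 369 lower, against 2029 and 1292 with it) and 7043 in LG versus LL (6698 higher and 345 lower, against 1572 and 972), and with a pseudocount of 0.1 3912 in LG versus LL. Scaling on epithelial genes gave 3607 higher and 703 lower in DP versus LL and 530 and 1742 in LG versus DP, where no scaling gave 715 and 1577 and median-ratio scaling 937 and 1011. Quantile normalization left 2 of the 10 genes called in DP versus LL, ELF5 and KLF5. Without scaling, signs turned in DP versus LL for NFIB (0.85), GATA3 (1.10), KLF5 (0.14), EHF (0.064) and SOX10 (0.72), and in LG versus LL for ELF3 (0.45), TBX3 (0.38), SOX9 (0.28) and ELF5 (0.80), each of which apart from GATA3 is below the shift of all genes. On 12 epithelial genes NFIB (0.057) and GATA3 (0.42) turned in DP versus LL, and on the 11 without PROM2, chosen after seeing the data, GATA3 (0.080). That 11-gene scaling left 1 of the 10 genes, KLF5, called in LG versus LL, and gave 1224 genes higher and 1276 lower there and 493 and 1732 in LG versus DP. Without 1 library, GATA3 ranged from -0.41 to 0.24 and SOX9 from -0.13 to 0.16 in DP versus LL. Beyond the shift, the cause of these turns was not tested. For LG versus DP the signs of all 10 genes were kept under each alternative run. FOXA1 did not pass a filter of 2 FPKM.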
